A study of Mus musculus with 3 samples.

Results

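The promoters of 61 genes of the sarcomere and of muscle contraction were examined for PRDM2 and H3K9me2 in C2C12 cells arrested in G0. The genes were those on the array whose names fit a fixed name rule (myosin heavy and light chains, troponins, tropomyosins, muscle actins, alpha-actinins, myosin binding proteins, myomesins, titin, desmin, calcium pumps and the like) and that had at least 3 usable probes, out of 16164 promoters of 16079 gene names in all. The rule used names alone and no measured value. It also took in relatives that serve smooth muscle or all cells, such as the non-muscle myosin Myh9 and the alpha-actinin Actn4, and a kinase gene, Tnni3k, that resembles a troponin in name alone.

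C2C12 is a mouse myoblast line, a model of muscle precursor cells, and every array came from such cells held out of division. Per the labels, the cells were kept in 2% methylcellulose and fixed with 1% formaldehyde, which was stopped with 0.125 M glycine. DNA precipitated with an antibody against PRDM2 (2 arrays) or against H3K9me2 (1 array) was labelled red and hybridised beside its green input DNA, with no exchange of dyes, so that dye and precipitation cannot be told apart. The labels do not say that the PRDM2 arrays came from separate cultures, and p-values rest on the spread between these 2 arrays only. Limma draws the variance of each promoter toward a value shared by all promoters, so a p-value reflects the promoter's own spread only in part. Growing cells, differentiated muscle cells and a control antibody were not analysed here.

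The sarcomere is the contractile unit of striated muscle: myosin thick filaments pull on actin thin filaments when calcium, released from the sarcoplasmic reticulum, binds troponin, and calcium pumps of that membrane end the contraction by taking calcium back. Myoblasts express few of these genes strongly and switch many of them on when they leave the cell cycle for good and fuse into fibres. PRDM2, also called RIZ, is a zinc finger protein with a PR domain known to methylate lysine 9 of histone H3. H3K9me2, the dimethylated form of that lysine, is a mark of silent chromatin.

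Each value is the log2 ratio of precipitated over input DNA, averaged over the probes of a promoter after each array was set to 0 at its median probe, so 1 is a doubling relative to that probe and not an absolute occupancy. Between 71.1% and 78.9% of probes had precipitated DNA well above background, depending on the array, and at least 92.8% had input DNA well above it. The median raw signal of precipitated DNA was nevertheless only 1.47 and 1.39 times that of negative control spots on the PRDM2 arrays. On the H3K9me2 array it was 6.44 times. The 61 promoters held 1035 probes, 5 to 26 each with a median of 17, over a median span of 3671 bp. Values of the PRDM2 arrays differed by a median of 0.25 over the 61 promoters, against 0.29 over all promoters, and most in Ryr1, by 0.94.

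PRDM2 was enriched at 24 of the 61 muscle promoters, or 39.3%, and depleted at none (limma against 0, adjusted p under 0.05 over all promoters, where an unadjusted p under 0.05 gave 27 enriched and 0 depleted). Of all promoters 46.9% were enriched and 1.08% depleted, and 53.0% and 1.98% at an unadjusted p under 0.05, so the muscle share was no higher than the background. The median PRDM2 value was 0.32 over the muscle promoters and 0.50 over all promoters. Both PRDM2 arrays were above 0 at 46 muscle promoters and below 0 at 4, against 11851 and 1626 of all 16164 promoters. Enrichment was found at 9 of 16 promoters of the thick filament and M line, 2 of 8 of myosin light chains, 5 of 15 of the thin filament (a list made by name that holds Tnni3k, which was not enriched), 3 of 11 of the Z disc and intermediate filament, 0 of 2 of the membrane complex, 4 of 7 of calcium handling and 1 of 2 of energy and oxygen supply. Removing the trend of the ratios on GC content left 6 muscle promoters enriched and 0 depleted, against 13.8% and 1.23% of all promoters. Taking the median promoter in place of the median probe as 0, which moved the median of all promoters from 0.50 to 0.00, left 6 enriched and made 4 depleted (Actn2, Tnni3k, Tnnc2 and Tpm3), against 17.2% and 13.0% of all promoters. With normexp background correction limma called no promoter on the array, and 1 muscle promoter was enriched and 2 depleted at an unadjusted p under 0.05. Shares of all promoters at that unadjusted p were not computed with normexp.

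**Figure D1:**
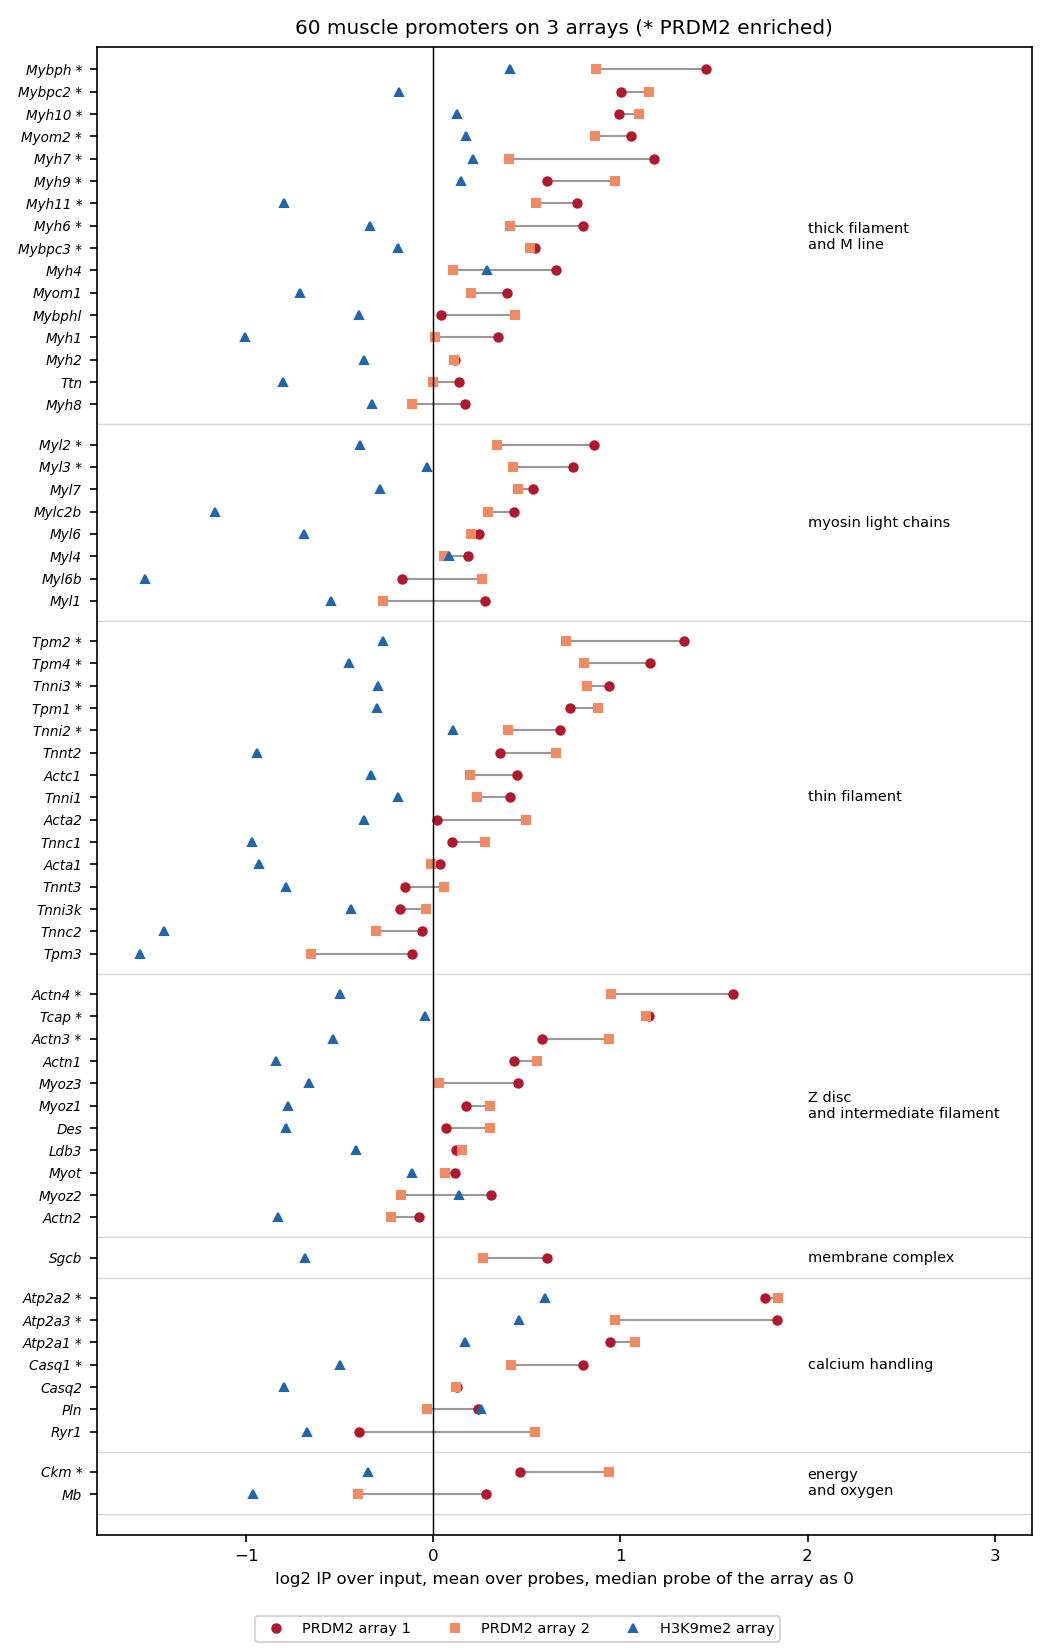
Log2 ratio of precipitated over input DNA at 60 of the 61 muscle promoters, grouped by role, on PRDM2 array 1 (circles), PRDM2 array 2 (squares) and the H3K9me2 array (triangles), with the median probe of each array as 0. Atp2a2 lies farthest right on array 2, Tpm3 lies farthest left among the H3K9me2 values, and at most promoters both PRDM2 values lie to the right of the H3K9me2 value.

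Calcium pumps of the sarcoplasmic and endoplasmic reticulum, Atp2a2 and Atp2a3, gave the highest PRDM2 means of the 61 promoters. Atp2a2, the pump of slow and cardiac muscle and of most other cells, had 1.77 and 1.84 with PRDM2 and 0.60 with H3K9me2. Its mean of 1.81 ± 0.05 (SD, n = 2, limma adjusted p = 9.28e-05) ranked 379 among 16164 promoters. The 2 arrays all but coincided there. Atp2a3, the pump of non-muscle cells, had 1.84 and 0.97 with PRDM2 and 0.46 with H3K9me2. Its PRDM2 arrays lay far apart, yet its mean of 1.40 ± 0.61 (SD, n = 2) passed the test (limma adjusted p = 0.000794). The test used variances drawn toward a shared value, with an SE of 0.24 in Atp2a3 and 0.20 in Atp2a2. Atp2a1, the fast-fibre pump, is named here after its values were seen, and had 0.94 and 1.08 with PRDM2 (limma adjusted p = 0.00187) and 0.17 with H3K9me2. All 3 pump promoters were thus enriched for PRDM2, against 46.9% of all promoters, and all 3 also had H3K9me2 values above 0. Such H3K9me2 values were found at 13 of the 61 muscle promoters and at 5813 of all 16164 promoters. Atp2a1 lost its call with the median promoter as 0, loess, normexp, the median over probes and the highest 3 neighbouring probes. Atp2a3 lost its call with loess, normexp and the highest 3 neighbouring probes.

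The 4 probes of Atp2a2 that passed the test per probe are shown, since they carry the strongest muscle promoter signal; coordinates are those of the array design, with no genome build stated in the labels or headers, letters are the deposited probe's, and capitals mark CpG dinucleotides.
Atp2a2 probe chr5:122762264-122762308: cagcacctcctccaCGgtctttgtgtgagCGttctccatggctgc
Atp2a2 probe chr5:122762553-122762597: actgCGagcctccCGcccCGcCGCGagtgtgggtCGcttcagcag
Atp2a2 probe chr5:122762870-122762914: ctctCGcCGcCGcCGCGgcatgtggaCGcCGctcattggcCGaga
Atp2a2 probe chr5:122764301-122764352: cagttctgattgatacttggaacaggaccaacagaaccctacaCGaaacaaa
The first 3 hold 2, 6 and 8 CpG, while the last holds 1. The third reached 5.57 and 4.89 with PRDM2 and 1.53 with H3K9me2. At the last probe the H3K9me2 value, 3.52, lay beside 3.47 and 4.11 for PRDM2, so that all 3 arrays were high. The GC content of the 4 probes was 60%, 73.3%, 73.3% and 42.3% in the order shown. Their PRDM2 means were 5.24, 4.64, 5.23 and 3.79, and with the GC trend removed 2.92, 0.55, 1.14 and 4.02.

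Casq1, which encodes calsequestrin, the calcium store of the fast-fibre reticulum, was also enriched, at 0.80 and 0.41 (named after its values were seen; limma adjusted p = 0.0308), with H3K9me2 at -0.50; its PRDM2 mean turned to -0.14 with loess and lost its call with the GC trend removed. The calcium release channel Ryr1 had -0.40 and 0.54 with PRDM2 and -0.68 with H3K9me2. Its PRDM2 arrays fell on opposite sides of 0 and only 5 probes measured it. Pln, the inhibitor of the Atp2a2 pump, had 0.24 and -0.04 with PRDM2 against 0.25 with H3K9me2. It was the 1 promoter of the 61 where both PRDM2 arrays lay below the H3K9me2 array, by a mean difference of -0.15 (limma adjusted p = 0.715). The input signal of its probes averaged below that of array probes of like GC content on every array. It was lower by 0.65 and 0.69 on the PRDM2 arrays and by 1.13 on the H3K9me2 array, on the log2 scale. The part of that in the values of Pln was not tested.

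**Figure D2:**
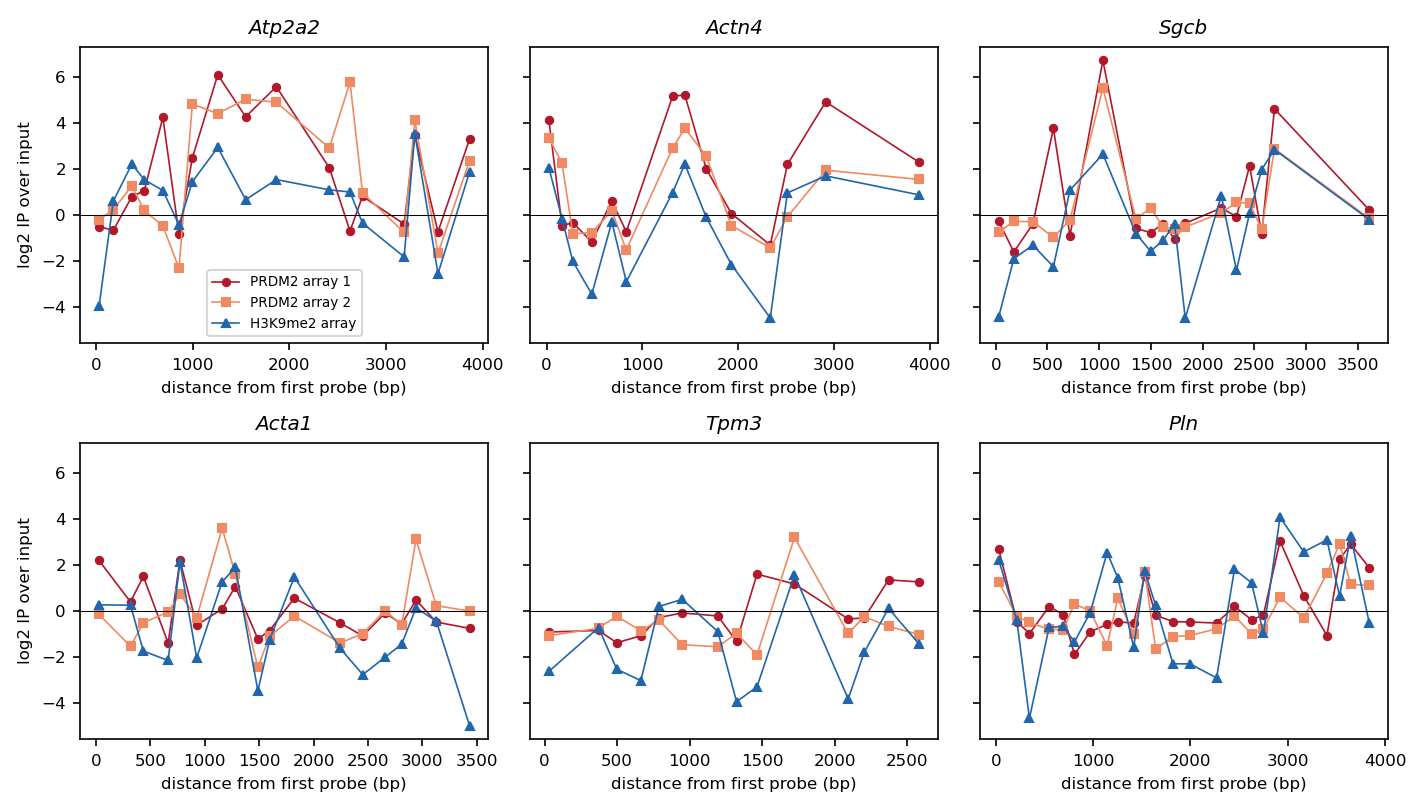
Log2 ratio of precipitated over input DNA at each probe of 6 promoters, by distance from the first probe, on PRDM2 array 1 (circles), PRDM2 array 2 (squares) and the H3K9me2 array (triangles). Atp2a2 holds several neighbouring probes that are high on both PRDM2 arrays, Sgcb holds its highest probe at 6.71 and 5.51 among mostly low ones, and most probes of Acta1 and Tpm3 lie near or below 0.

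Among thick filament and M line genes, Mybph, a myosin binding protein gene, had 1.46 and 0.87 with PRDM2 and 0.41 with H3K9me2 (PRDM2 limma adjusted p = 0.00137). Mybpc2, the fast skeletal myosin binding protein C, had 1.00 and 1.15 with PRDM2 and -0.18 with H3K9me2 (limma adjusted p = 0.00133). Non-muscle and M line members stood close to these. Myh10, a non-muscle myosin heavy chain, averaged 1.05 ± 0.08 and the M line gene Myom2 0.96 ± 0.13 (SD, n = 2 each; both named after their values were seen). The cardiac myosin heavy chain genes Myh6 and Myh7, neighbours on chromosome 14 and also named after their values were seen, averaged 0.60 ± 0.28 and 0.79 ± 0.55 (SD, n = 2 each), both enriched. With loess both turned below 0, to -0.00917 in Myh6 and -0.11 in Myh7.

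Of the skeletal myosin heavy chain genes of chromosome 11, none of the 4 measured, Myh1, Myh2, Myh4 and Myh8, was enriched. Myh2, the fast IIa heavy chain, had 0.12 and 0.11 with PRDM2 and -0.37 with H3K9me2. Myh8, the perinatal heavy chain, had 0.17 and -0.11 with PRDM2 and -0.33 with H3K9me2. Their PRDM2 values lay near the median probe. Myh4, the fast IIb heavy chain, had 0.66 and 0.10 with PRDM2 and 0.29 with H3K9me2, the fourth-highest H3K9me2 value of the set; PRDM2 minus H3K9me2 was 0.09 there (SE 0.37, limma adjusted p = 0.839). Myh1, the fast IIx heavy chain, had 0.35 and 0.01 with PRDM2 against -1.01 with H3K9me2 (difference 1.19, SE 0.35, limma adjusted p = 0.0258). Probes of these promoters were poor in GC, from 37.3% in Myh2 to 38.5% in Myh8. At each of the 4 promoters their input signal averaged below that of array probes of like GC content, on all 3 arrays. With the GC trend removed none of the 4 passed either, but their median PRDM2 value was 0.36, against 0.23 over all promoters, and Myh4 at 0.59 and Myh1 at 0.41 then stood beside Mybpc2 at 0.42 and Myh10 at 0.30. Ttn, the giant spring protein of the sarcomere, had 0.14 and -0.00 with PRDM2 and -0.80 with H3K9me2 (PRDM2 limma adjusted p = 0.801). Dmd, Myh3 and Myh13 were not analysed here.

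Of the myosin light chains, the enriched promoters were those of Myl2 and Myl3, the ventricular and slow regulatory and essential chains. Myl2 had 0.86 and 0.34 with PRDM2 and -0.39 with H3K9me2 (PRDM2 limma adjusted p = 0.0369). Myl3 had 0.74 and 0.43 with PRDM2 and -0.04 with H3K9me2 (PRDM2 limma adjusted p = 0.034). Both passed by a small margin, and neither passed with the GC trend removed; with loess Myl3 turned to -0.42 (limma adjusted p = 0.0438), and with the highest 3 neighbouring probes Myl2 turned to -0.89. The fast skeletal Myl1 had 0.28 and -0.27, a mean of 0.00. Among light chains the largest gaps between targets were at members of the smooth muscle and non-muscle list: Myl6b had -0.17 and 0.26 with PRDM2 against -1.54 with H3K9me2, and Mylc2b, now called Myl12b, had 0.43 and 0.29 against -1.17. Neither was enriched for PRDM2, and both differences passed (1.59, SE 0.36, limma adjusted p = 0.0141, and 1.53, SE 0.35, limma adjusted p = 0.0139).

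In the thin filament, tropomyosin promoters lay at both ends of the range. Tpm2 had 1.34 and 0.71 with PRDM2 and -0.27 with H3K9me2 (PRDM2 limma adjusted p = 0.00297). Tpm4, a tropomyosin of non-muscle cells, had 1.16 and 0.80 with PRDM2 and -0.45 with H3K9me2 (PRDM2 limma adjusted p = 0.00262). Tpm3, the slow-fibre and non-muscle tropomyosin, was lowest of all 61, at -0.11 and -0.65 with PRDM2 and -1.57 with H3K9me2; its PRDM2 mean did not pass as depleted (limma adjusted p = 0.162). Tnnc2, the fast skeletal calcium sensor of troponin, had -0.06 and -0.30 with PRDM2 and -1.44 with H3K9me2. Tnnt2, cardiac troponin T, which immature skeletal muscle also makes, had 0.35 and 0.65 with PRDM2 and -0.94 with H3K9me2 (PRDM2 limma adjusted p = 0.0601).

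The striated muscle actins were not enriched. Acta1, skeletal alpha-actin, had 0.04 and -0.01 with PRDM2 and -0.93 with H3K9me2, a PRDM2 mean of 0.01 ± 0.04 (SD, n = 2, limma adjusted p = 0.969). Actc1, cardiac alpha-actin, had 0.45 and 0.19 with PRDM2 and -0.34 with H3K9me2, a PRDM2 mean of 0.32 that is also the median of the set (limma adjusted p = 0.211). Their promoters are classic targets of serum response factor, which binds the CArG box. RefSeq windows from 250 bases before to 50 after the start are shown for both on GRCm38.p6, since they are the best known promoters of the set and one stands at its median; capitals mark the stretches that array probes cover.
Acta1 promoter, chr8:123894726-123895025, minus strand: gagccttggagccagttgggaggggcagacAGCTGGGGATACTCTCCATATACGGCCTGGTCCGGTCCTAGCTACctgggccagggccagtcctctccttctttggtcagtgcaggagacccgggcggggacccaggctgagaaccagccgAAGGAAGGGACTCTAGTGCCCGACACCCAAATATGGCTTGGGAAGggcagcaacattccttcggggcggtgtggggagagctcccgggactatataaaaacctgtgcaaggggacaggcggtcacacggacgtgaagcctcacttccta
Actc1 promoter, chr2:114052826-114053125, minus strand: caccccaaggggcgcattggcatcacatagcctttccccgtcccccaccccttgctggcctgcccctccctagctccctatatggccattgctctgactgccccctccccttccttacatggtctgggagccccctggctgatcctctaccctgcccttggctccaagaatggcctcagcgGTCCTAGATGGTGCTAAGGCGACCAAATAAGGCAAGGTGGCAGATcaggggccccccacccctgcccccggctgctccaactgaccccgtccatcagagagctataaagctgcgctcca
In the Acta1 window the probe farther upstream read 1.05 and 1.58 with PRDM2 and 1.89 with H3K9me2. The probe nearer the start read 0.07 and 3.59 with PRDM2 and 1.25 with H3K9me2, so the PRDM2 arrays lay far apart there. The probe in the Actc1 window read 0.50 and 1.14 with PRDM2 and -0.44 with H3K9me2.

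At the Z disc, Actn4, an alpha-actinin of non-muscle cells, had 1.60 and 0.95 with PRDM2 and -0.50 with H3K9me2 (PRDM2 limma adjusted p = 0.000917). Its difference between the targets, 1.77 (SE 0.38, limma adjusted p = 0.0133), was the largest of the set. The input signal of its probes averaged above that of array probes of like GC content, by 0.88, 0.78 and 0.90 on the 3 arrays. The part of that in its values was not tested. With loess its PRDM2 mean turned to -0.13. Tcap, the titin cap, had 1.16 and 1.14 with PRDM2 and -0.05 with H3K9me2 (PRDM2 limma adjusted p = 0.000906). Its PRDM2 arrays all but coincided. Des, the intermediate filament protein of muscle, already made in myoblasts, had 0.07 and 0.30 with PRDM2 and -0.79 with H3K9me2 (PRDM2 limma adjusted p = 0.472). Actn2, the main striated muscle alpha-actinin, was lowest of the group, at -0.08 and -0.23 with PRDM2 and -0.83 with H3K9me2.

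Sgcb, a sarcoglycan of the membrane complex that anchors fibres to the matrix, had 0.61 and 0.27 with PRDM2 and -0.68 with H3K9me2, and its PRDM2 mean did not pass (limma adjusted p = 0.0991). One Sgcb probe nevertheless gave the highest probe value of the set, 6.71 and 5.51 with PRDM2 and 2.63 with H3K9me2. Its GC content was 68.9%, and with the GC trend removed its PRDM2 mean fell from 6.11 to 2.59. Among the probes that passed the test per probe, those of Myoz1 and Atp2a1 then stood highest, at 5.53 and 5.05. Probes of several other promoters also stood above it, such as Myh9 at 4.07 and Atp2a2 at 4.02. The Sgcb probe is shown for its value before that removal, with CpG in capitals.
Sgcb probe chr5:73926626-73926670: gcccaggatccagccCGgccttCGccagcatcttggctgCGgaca
Ckm, muscle creatine kinase, which buffers ATP, had 0.46 and 0.94 with PRDM2 and -0.35 with H3K9me2 (PRDM2 limma adjusted p = 0.0175). Mb, myoglobin, which stores oxygen, had 0.28 and -0.40 with PRDM2 and -0.97 with H3K9me2. Its PRDM2 arrays lay on opposite sides of 0. The input signal of its probes averaged above that of array probes of like GC content on each array, by up to 1.04.

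Per probe, 27 of the 1032 tested probes of muscle promoters were enriched (limma), in 17 promoters, or 2.62% against 4.99% of all probes. Depleted probes numbered 0, against 0.00381% of all probes. At an unadjusted p under 0.05, 194 muscle probes were enriched and 65 depleted (limma). The shares of all probes at that threshold were not computed, so these counts have no background. Atp2a2 held 4 of the 27 probes, and Atp2a1 and Myh9 held 3 each. All 27 had adjusted p-values between 0.0483 and 0.0499. None passed after removal of the GC trend, with normexp, with dim input probes left out or in the deposited value table. No probe of the whole array passed in those settings either. With loess 31 were enriched and 23 depleted, against 12521 and 5122 probes of the whole array.

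H3K9me2 was measured on 1 array, so its values have no replicate and no test. None of the 61 promoters stood at 1 or more above the median probe, against 4.08% of all promoters, and none did with the GC trend removed or with the median promoter as 0, against 7.37% and 7.17%. Tpm3, Myl6b, Tnnc2, Mylc2b and Myh1 stood at least 1 below it, 5 of 61 against 12.2% of all promoters. The median was -0.39 over the muscle promoters and -0.23 over all promoters. The highest values were those of Atp2a2, Atp2a3, Mybph and Myh4, and 3 of these 4 were also enriched for PRDM2. Over the 61 promoters the PRDM2 mean and the H3K9me2 value had a Pearson correlation of 0.62, against 0.52 over all promoters, as a description of arrays that share probes and GC content.

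PRDM2 exceeded H3K9me2 at 28 of the 61 promoters, or 45.9%, and H3K9me2 exceeded PRDM2 at 0 (limma over 3 arrays, where the lone H3K9me2 array is taken to vary as the PRDM2 pair does). Over all promoters the shares were 41.1% and 1.6%. The median difference was 0.92 over the muscle promoters and 0.85 over all promoters. With the GC trend removed 0 of 61 passed either way (limma; 12 had PRDM2 higher at an unadjusted p under 0.05), against 2.32% and 1.7% of all promoters. With the median promoter as 0 none passed either way (limma; 4 had PRDM2 higher at an unadjusted p under 0.05), against 0.736% and 3.03%. With normexp none passed (1 at an unadjusted p under 0.05), and 25 of the 28 turned negative. For these differences the shares of all promoters at an unadjusted p were not computed, so the unadjusted counts have no background.

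**Figure D3:**
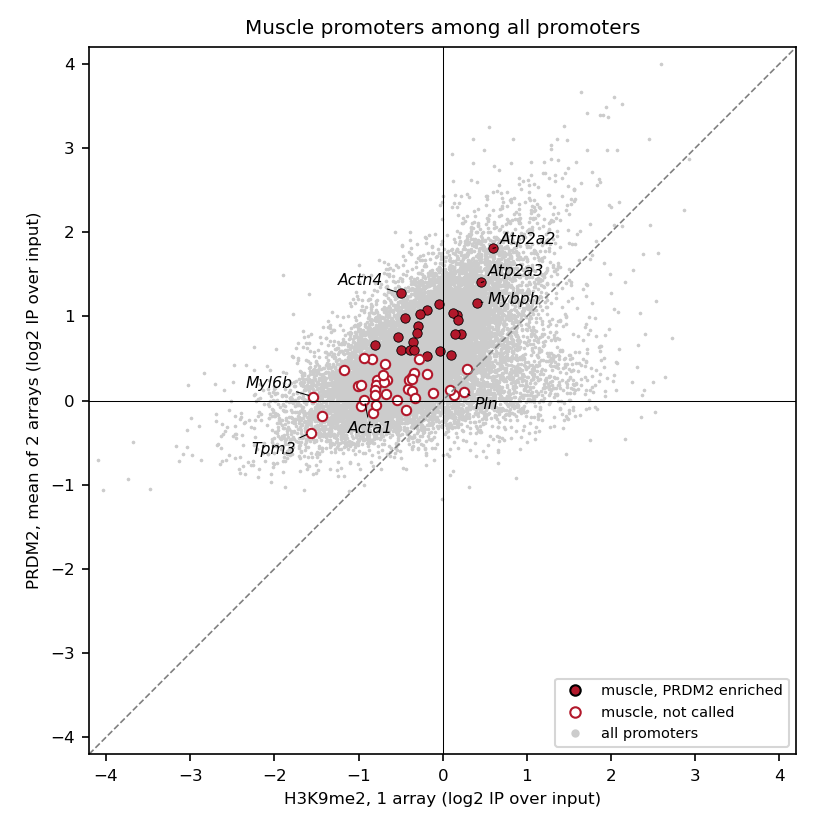
PRDM2 (vertical, mean of 2 arrays) against H3K9me2 (horizontal, 1 array), both as log2 ratio of precipitated over input DNA, for 61 muscle promoters (red, filled where PRDM2 was enriched) and all 16164 promoters (grey), with a dashed line of equal values. The muscle promoters lie inside the cloud of all promoters, with Atp2a2 the highest of them and Tpm3 at their lower left.

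PRDM2 values followed base composition. Across the 61 promoters the correlation with GC content was 0.49 and 0.64 on the PRDM2 arrays and 0.15 on the H3K9me2 array, against 0.56, 0.64 and 0.07 across all promoters; these describe points that share arrays and probes. The muscle promoters had a median GC content of 44.4%, against 43.9% over all promoters, but held 0.93 CpG per 100 bases of probe, against 1.78. Beside the median of all promoters of like GC content (20 classes), the PRDM2 value was higher at 29 of 61 muscle promoters and the H3K9me2 value was lower at 41 of 61. Among the 9 muscle promoters with at least 2 CpG per 100 bases 66.7% were enriched, against 68.4% of all such promoters, and among the other 52 the share was 34.6%, against 30.2%; the limit was chosen after the values were seen.

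With the GC trend removed, Atp2a2, Atp2a3, Atp2a1, Actn4, Mybph and Myom2 remained enriched. Atp2a2 then had 1.03 and 1.11 with PRDM2 (limma adjusted p = 0.00242) and 0.59 with H3K9me2. Myom2 then had 1.12 and 0.96 with PRDM2 (limma adjusted p = 0.00311), and was the 1 of the 6 whose mean was not smaller than before, at 1.04 against 0.96. Atp2a3 and Atp2a1 passed narrowly, at limma adjusted p = 0.0499 and 0.0424. Atp2a2 was enriched under 9 of the 10 alternatives, the exception being normexp, under which its mean was 0.72 (limma adjusted p = 0.4).

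**Figure D4:**
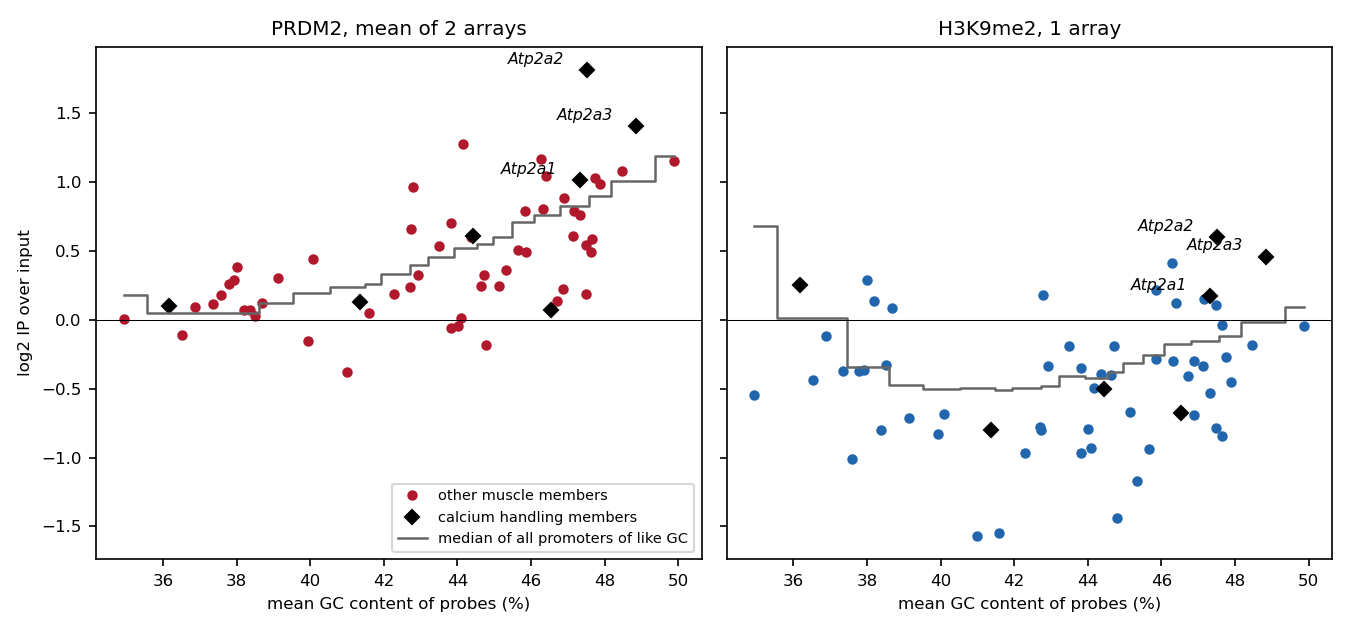
Log2 ratio of precipitated over input DNA against the mean GC content of probes in percent at the 61 muscle promoters, for PRDM2 (left, mean of 2 arrays) and H3K9me2 (right, 1 array), with calcium handling members as black diamonds and the median of all promoters of like GC content as a grey line. Atp2a2 lies 0.98 above the line for PRDM2 and 0.75 above it for H3K9me2.

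Around the start site the PRDM2 arrays placed the highest muscle values differently, while both placed those of other promoters downstream. RefSeq windows placed the start for 44 muscle promoters and 9802 other promoters. From 250 bp upstream to the start the median probe was at 0.87 in muscle promoters and 0.57 in other promoters. In the 250 bp after the start it was at 0.57 in muscle promoters and 1.62 in other promoters, where median GC content was 46.8% and 53.3%. That the muscle median was higher upstream than downstream rests on PRDM2 array 2, with 1.30 upstream and 0.34 downstream. Array 1 had 0.62 upstream and 0.80 downstream. Other promoters had upstream medians of 0.38 on array 1 and 0.55 on array 2, below those of muscle promoters on both. With the GC trend removed the downstream values were 0.16 and 0.07, and the upstream values 0.42 and 0.00.

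**Figure D5:**
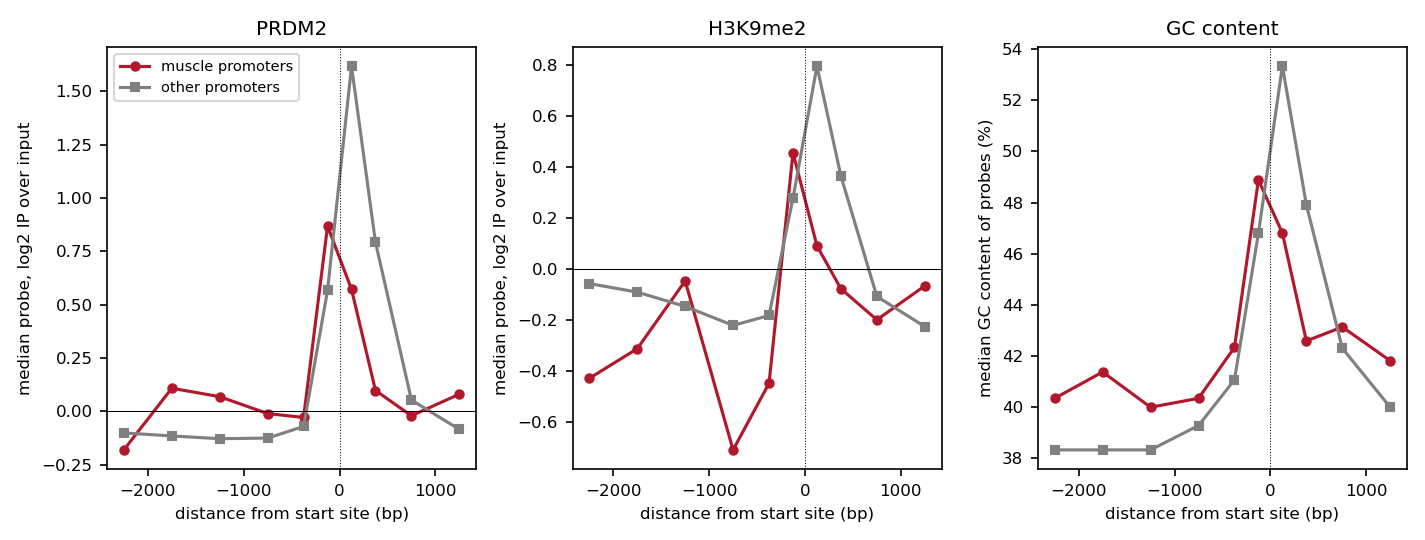
Median probe value of PRDM2 (left) and H3K9me2 (middle), as log2 ratio of precipitated over input DNA, and median GC content of probes in percent (right), by distance from the start site, for 44 muscle promoters (red) and 9802 other promoters (grey). Averaged over both PRDM2 arrays, the muscle median is 0.87 just upstream of the start and 0.57 just downstream, an order that array 1 alone does not show, and other promoters peak just downstream at 1.62, where their GC content is highest.

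Motifs were searched on both strands of the RefSeq windows of 50 muscle genes and 12470 genes on the array. The CArG box was found in 7 muscle windows, or 14%, against 1.4% of all, and the MEF2 site in 8, or 16%, against 2.54%. Acta1, Actc1, Ldb3, Myh4, Myl3, Myl7 and Myom1 held the CArG box. Of these 7 only 1, Myl3, was enriched for PRDM2, against 17 of the 43 without it and 46.9% of all promoters. The median PRDM2 value was nevertheless 0.32 both with and without the CArG box, at a median probe GC content of 44.1% and 44.4%. Of the 8 with a MEF2 site 1 was enriched, against 17 of the 42 without, and median probe GC content was 38.3% with the site and 45.1% without. TATAAA was found in 24% against 11.7%, the E-box CANNTG in 86% against 67%, and GGGCGG, the core of the Sp1 site, in 36% against 53.1%. Of the 12 muscle windows with TATAAA 3 were enriched for PRDM2, against 15 of the 38 without. Their median probe GC content was 39.3%, against 44.8% without. With CANNTG 17 of 43 were enriched, and without it 1 of 7, at a median probe GC content of 44.4% and 40.1%. Of the 18 muscle windows with GGGCGG 9 were enriched for PRDM2, and their median probe GC content was 45.8%, against 43.4% in the 32 without, of which 9 were enriched. These matches describe letters in the windows and show no binding.

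By fibre type, PRDM2 was enriched at 5 of 12 fast skeletal promoters, 7 of 13 slow and cardiac promoters, 0 of 5 developmental promoters and 6 of 11 promoters of smooth muscle and non-muscle relatives, with Acta2 counted in both of the last lists, against 46.9% of all promoters. With the GC trend removed the counts were 1, 1, 0 and 2 in the same order, against 13.8% of all promoters. The developmental promoters had a median GC content of only 38.7%. The PRDM2 medians were 0.31, 0.53, 0.26 and 0.66 in the same order, and differences between the lists were not tested. Of 58 promoters of other muscle genes outside the name rule, such as those for triad, Z disc and metabolic proteins, 28 were enriched, or 48.3% against 46.9% of all promoters, and 1, Nrap, was depleted. With the GC trend removed 6 of the 58, or 10.3%, were enriched, against 13.8% of all promoters. With the median promoter as 0, 7 were enriched and 12 depleted, or 12.1% and 20.7% against 17.2% and 13.0% of all promoters. Of the 4 myogenic bHLH factor promoters, Myog and Myod1 were enriched, or 50% against 46.9% of all promoters. Neither was with the GC trend removed or with the median promoter as 0, against 13.8% and 17.2% of all promoters.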

How the data were processed

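Chromatin of G0-arrested C2C12 cells was measured on 3 two-colour Agilent promoter arrays, 2 for PRDM2 and 1 for H3K9me2. Per the file headers, the authors' processed intensities were made with Agilent Feature Extraction 10.5.1.1, after detrending, background subtraction and linear dye normalization; the mean signals and local backgrounds are raw intensities. Per the file headers, the deposited log10 ratios compare red with green processed signal and served as a check (99% of probes differed from the recomputed ratio by at most 0.0827 on the H3K9me2 array), and other deposited columns are flags of 0 or 1. The deposited value table is on a log2 scale, as found by comparison with the scanner files (correlations 0.965, 0.940 and 0.972, medians 0.124, 0.103 and 0.278); its centring is unknown, and no label or header names the tool behind it.

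Red was divided by green processed signal and put on the log2 scale, outlier spots were dropped (773, 107 and 218), and the median probe of each array was set to 0, having stood at -0.91, -0.80 and -0.27. Probes of 1 gene name were averaged to promoters, split at gaps over 10000 bp, with at least 3 probes on every array. Limma 3.58.1 (lmFit, eBayes) in R 4.3.3 tested PRDM2 against 0 and against H3K9me2, with Benjamini-Hochberg adjustment over all promoters or probes at 0.05, after a test on simulated data. Tables were handled with pandas 2.3.3 and numpy 2.4.6 under Python 3.11.15, and figures drawn with matplotlib 3.10.9. GC trends were removed per array by lowess over probes. The number of arrays limits the precision.

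The members, gene lists and the rule for names were chosen with earlier results of these data known. The rule named in each role the 2 highest and the lowest PRDM2 means, the 4 highest and 3 lowest H3K9me2 values, the 3 members with most PRDM2 over H3K9me2, or the reverse, where the PRDM2 arrays fell on 1 side, and Acta1, Actc1, Ckm, Des, Dmd, Mb, Myh3, Ttn, Tnnt2 and the skeletal Myh cluster in any case. Values of 1 member are not reported here by name, though it is counted. All 61 names matched RefSeq gene names, 60 as current symbols and 1 as a synonym. Alternatives were GC trend removal, centring on the median promoter, normexp, loess, the median probe, the highest 3 neighbouring probes, bright input only, the value table, at least 8 probes, a variance trend, and each PRDM2 array alone.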

Additional observations from a re-analysis of the deposited data

How the results depend on the processing

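Of 10 alternatives, 4 kept the count of PRDM2-enriched muscle promoters within 1.5 times of 24: bright input only (24), at least 8 probes (27), the value table (19) and the variance trend (21). It was 6 with the GC trend removed, 6 centred on the median promoter, 6 with the highest 3 neighbouring probes, 5 with loess, 2 with the median probe and 0 with normexp. These were 9.84%, 9.84%, 9.84%, 8.2%, 3.28% and 0% of muscle promoters. Of all promoters 13.8%, 17.2%, 21%, 20.5%, 5.69% and 0% were enriched in the same order, so the share fell there as well. Under the first 4 settings named it was 48.9%, 52.5%, 41.1% and 48.7% of all promoters. Depleted muscle promoters numbered 4 centred on the median promoter, 5 with loess, 6 with the highest 3 neighbouring probes and 1 in the value table, and 0 otherwise. In the same order 13%, 7.12%, 16.8% and 1.35% of all promoters were depleted. PRDM2 exceeded H3K9me2 at 0 muscle promoters with the GC trend removed, centred on the median promoter, with normexp, with the median probe and with the highest 3 neighbouring probes, at 1 with loess (where H3K9me2 exceeded PRDM2 at 1) and at 13 in the value table. The shares of all promoters with PRDM2 higher were 2.32%, 0.736%, 0%, 0%, 0%, 2.9% and 22.7% in the same order. H3K9me2 stood at 1 or more at 4 promoters with normexp, 1 with loess, 1 with the median probe and 4 with the highest 3 neighbouring probes. The share of all promoters at that level was not computed in those settings, so these counts have no background. Enriched probes numbered 0 with the GC trend removed, with normexp, with bright input only and in the value table, on the whole array as well. The median PRDM2 value was 0.30 to 0.43 with either PRDM2 array left out; counts of calls have no test there.

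Of the 24 enriched promoters, 8 turned below 0 with loess, 6 with normexp, 2 with the median probe and 6 with the highest 3 neighbouring probes; values follow for the 38 genes followed by name, and the cause was not tested. For PRDM2 with loess, Actn4 was -0.13, Casq1 -0.14, Myh6 -0.00917, Myh7 -0.11, Myh9 -0.0691 and Myl3 -0.42, the last now depleted. For PRDM2 with normexp, Casq1 was -0.0354, Myh6 -0.0613 and Myl3 -0.18. With the median probe, Myh6 was -0.0758 and Myh9 -0.0674. With the highest 3 neighbouring probes, Myl2 was -0.89, Myom2 -0.17 and Ryr1 -1.69, the last depleted in that setting alone. The difference of PRDM2 and H3K9me2 with normexp was -0.61 in Acta1, -0.46 in Actn4, -0.36 in Atp2a2, -0.80 in Casq1, -0.16 in Ckm, -0.56 in Des, -0.30 in Mybpc2, -0.19 in Myh10, -0.15 in Myl2, -0.20 in Mylc2b, -0.0164 in Sgcb, -0.78 in Tcap, -0.54 in Tnnc2, -0.59 in Tnnt2, -0.43 in Tpm2, -0.30 in Tpm3 and -0.34 in Tpm4. It was -0.0395 in Myh1 and -0.0496 in Myh10 with loess, and -0.43 in Myl2 and -0.24 in Tnnc2 with the highest 3 neighbouring probes. A further 109 values changed sign without a call on either side, of 720 computed for those genes. No paired analysis was possible because the H3K9me2 group has 1 array and shares fewer than 2 replicate numbers with PRDM2.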
